A study of Rattus norvegicus with 6 samples.

Results

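The mitochondrial respiratory chain of rat liver was followed through its nuclear-encoded subunits in 3 normal livers and 3 livers made fibrotic by bile duct ligation, an operation that ties off the bile duct so that bile backs up and scar tissue forms. The members were a list of 39 genes for subunits of complexes I to V and for cytochrome c, matched to array probes by RefSeq accession. Of these, 37 had a probe and were measured, among 15443 named genes in all, through 42 of the 30367 probes on the array. Ndufa8 and Cyc1 were matched by no probe and were not analysed here. Each of the 6 rats gave total RNA from a tissue block of its liver to 1 Agilent array in 1 colour (Cy3). The normal group carried no operation that the labels name, and the fibrosis group was the ligated model. Strain, sex, age and the time after ligation are not given in the sources used here. A tissue block holds every cell type of the liver, so in these data fewer cells of a type and less RNA per cell cannot be told apart.

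The respiratory chain sits in the inner mitochondrial membrane. Complexes I and II take electrons from NADH and succinate and pass them to coenzyme Q, complex III hands them to cytochrome c, and complex IV gives them to oxygen. Complexes I, III and IV pump protons, and complex V, the ATP synthase, uses the proton gradient to make ATP. Most subunits are encoded in the nucleus and imported, and the rest come from mitochondrial DNA. Hepatocytes are rich in mitochondria and rely on the chain for urea synthesis, gluconeogenesis and the oxidation of fatty acids.

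All values are log2 signals relative to the 75th percentile of the same array, so that 0 marks that percentile, and differences are fibrosis minus normal with their standard error. That percentile stood at an intensity of 4016 ± 330 (SD, n = 3) in normal and 5453 ± 833 (SD, n = 3) in fibrotic liver. Having 3 arrays a group limits how precise each value can be. The standard errors and p-values come from limma, which draws each gene's variance between these livers towards a value shared over all tested probes. A gene passed the test at a limma adjusted p under 0.05 with adjustment over 19731 tested probes, and a gene with several probes stood by its brightest. Markers of bile ducts and of scar-forming cells were higher in the fibrosis group. Of 8 tested cholangiocyte markers 8 were higher and 0 lower, with Krt7 at 5.65 ± 0.53 (adjusted p = 0.000306) and Sctr at 5.47 ± 0.44 (0.000146). That count depends in part on the filter on dim probes. With signal above background required on all 6 arrays, 7 were tested and 7 higher. Without any filter, 9 were tested, of which 8 were higher and 1 had a difference below 0. Of 10 stellate cell and myofibroblast markers 7 were higher and 0 lower, with Col1a1 at 3.19 ± 0.64 (0.0106) and Vim at 3.13 ± 0.26 (0.000162).

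Chain subunits had lower means in fibrotic liver, and 1 of them passed the test. All 37 measured members had a difference below 0, from -0.94 for Atp5f1c to -0.13 for Ndufa2, against 53.6% of all named genes tested. That share was 80.4% in 2089 other named genes within the members' range of signal (1.05 to 3.56), at a median difference of -0.37. The median over members was -0.62, or 65.2% of the normal signal, and the median over all 10864 named genes tested was -0.07. The member that passed was Ndufa6, an accessory subunit of complex I. No member was higher, and 36 did not pass, against a background of 7.62% of named genes called lower and 14.7% called higher. Without adjustment, 18 of the 37 had a limma p under 0.05, and so did 3952 of the 10864 named genes tested, in either direction. In 26 members every fibrosis array lay below every normal array, where 20.9% of all named genes and 41.2% of other genes in the members' range of signal did so. Groups of 3 against 3 allow an exact permutation p no smaller than 0.1, so single genes were tested with limma only.

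**Figure D1:**
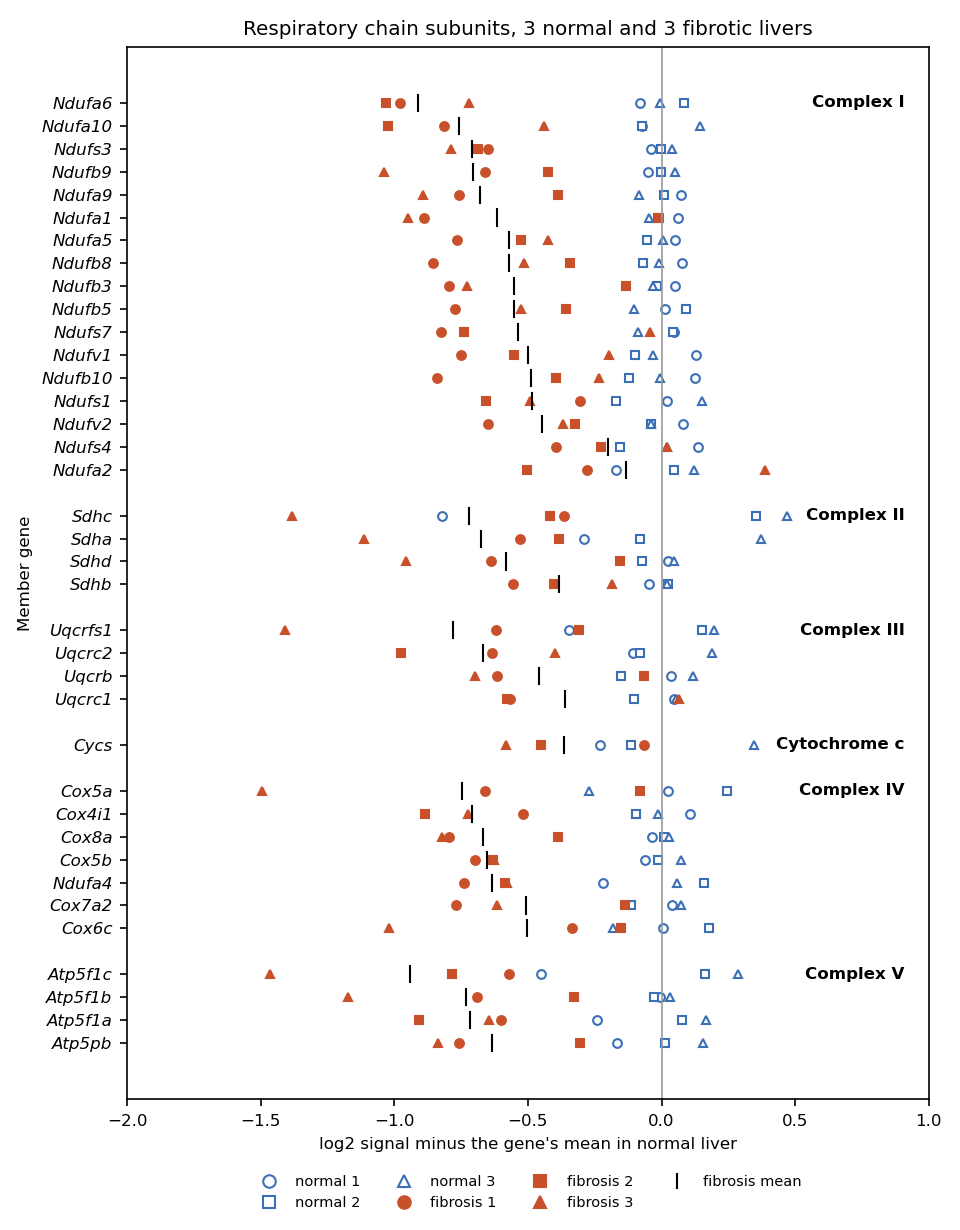
Each row is a member gene, and each point is the log2 signal of 1 array minus the gene's mean in normal liver, with open blue symbols for normal and filled orange symbols for fibrosis arrays and a bar at the fibrosis mean. The bars of all 37 genes lie left of 0, between -0.94 and -0.13, and the 3 normal arrays lie closer together than the 3 fibrosis arrays in most rows.

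The fibrotic livers differed among themselves. The median SD of a member was 0.102 in the normal group and 0.291 in the fibrosis group, both below the medians over all named genes of 0.222 and 0.408. The median member stood at -0.66 relative to its normal mean in fibrosis 1, at -0.40 in fibrosis 2 and at -0.65 in fibrosis 3. All 37 members were below their normal mean in fibrosis 1 and in fibrosis 2, and 34 were in fibrosis 3. Fibrosis 1 was the only ligated liver in the slide row of the normal arrays. A fit with the row as a block, used below as an alternative, therefore rests on fibrosis 1 alone for its differences. Its member median of -0.66 repeats that of fibrosis 1. Fibrosis 3 was the lowest of the ligated livers for 16 members, fibrosis 1 for 13 and fibrosis 2 for 8. Fibrosis 2 was the highest for 17.

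Promoter sequences of 34 members were found in the RefSeq table of the GRCr8 build, each with 250 bases before and 50 bases after the annotated start. Short sequence words were searched on both strands. AAGATGGC, a core of the site for YY1 (a zinc finger factor), was in 9 of 34 member promoters (26.5%) and in 3.44% of all 27457. The site of NRF1 (a factor of mitochondrial genes), searched as GCGCA, any base and GCGC, was in 4 (11.8%, against 4.71%), and CCGGAAGT, an ETS factor site, in 4 (11.8%, against 4.01%). TCAAGGTCA, a site for oestrogen-related receptors, was in 1 (2.94%, against 0.412%), GGGGCGGGG in 3 (8.82%, against 10.4%), CCAAT in 10 (29.4%, against 37.7%) and TATAAA in 1 (2.94%, against 14.3%). The median GC content was 58.3% in member promoters and 52.3% in all. These matches describe letters and are not evidence of binding. AAGATGGC contains ATG, and whether a match marks a start codon was not tested.

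The following stretches of 30 bases show the AAGATGGC match in capitals in 5 members, chosen to include the gene that passed the test and members of 3 complexes. On the gene's strand the first capital lay at base 16 for Ndufa6, 11 for Ndufa9, 22 for Ndufb8 and 4 for Sdhc, counted from 1 at the start, and at base -4 for Cox8a, where the capitals read the other strand's word.
Ndufa6: gcttccttagcAAGATGGCggccgcggcca
Ndufa9: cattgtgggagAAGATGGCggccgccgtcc
Ndufb8: cggagaaggtgAAGATGGCggcgtcccggg
Sdhc: ggccggaactcAAGATGGCtgcgctcttgc
Cox8a: cggctattgcgGCCATCTTgacttcctgac
In GRCr8 these lie on the minus strand at chr7:115750284-115750313, chr4:161374142-161374171, chr1:253362897-253362926, chr13:86098004-86098033 and chr1:213833609-213833638, in this order. The next 3 stretches show the NRF1 word, on either strand, in capitals, for Ndufa5 at base -32, for the first of 3 matches in Sdha at base -89 and for Atp5f1c, the member with the lowest difference, at base -8.
Ndufa5: cgtatgagctGCGCAGGCGCaaatctctcc
Sdha: cgtttgcagaGCGCAGGCGCaccaccactc
Atp5f1c: ccgagctcccGCGCACGCGCagtgagcctc
They lie at chr4:53971248-53971277 on the minus strand, and at chr1:30764454-30764483 and chr17:73333667-73333696 on the plus strand of GRCr8.

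Complex I, the NADH dehydrogenase, is the largest complex of the chain, with core subunits that carry the flavin and iron-sulphur clusters and many accessory subunits around them. Of its 17 measured members 1 was lower, 0 were higher and 16 did not pass, at a median of -0.55, and the groups did not overlap in 13. With fibrosis below, 20.9% of all named genes had no overlap. The share was 41.2% among other named genes in the members' range of signal (1.05 to 3.56). Ndufa6 read 2.44, 2.60 and 2.51 in the normal livers and 1.54, 1.49 and 1.80 in the fibrotic livers. Every fibrotic liver lay below every normal liver, by more than the spread within either group. The difference was -0.91 ± 0.23 (limma adjusted p = 0.0258), which is 53.2% of the normal signal. The call of Ndufa6 was lost without each normal array in turn (adjusted p = 0.0738, 0.114 and 0.114) and without fibrosis array 1 (-0.88, 0.0695). It was also lost with quantile normalization (-0.61, 0.113), cyclic loess (-0.60, 0.121), spike-in scaling (-0.57, 0.296), no filter on dim probes (0.0658) and the slide row as a block (-0.98, 0.163). At least 0.5 of the spots of Ndufa6 carried the software's outlier mark on each of the 6 arrays. With marked spots left out Ndufa6 could not be tested, so its call rests on marked spots.

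Ndufs3, a core subunit of the arm that reaches into the matrix, had the smallest standard error of the complex and read 2.28, 2.32 and 2.36 in normal and 1.67, 1.63 and 1.53 in fibrotic liver. Its difference of -0.71 ± 0.22 just missed the threshold (limma adjusted p = 0.0543). Ndufa10, an accessory subunit of the membrane arm, read 2.09, 2.09 and 2.30 in normal and 1.35, 1.14 and 1.72 in fibrotic liver, and its difference of -0.76 ± 0.25 did not pass (0.0706). The groups did not overlap for either gene. The 7 members of the membrane arm had a median of -0.57 and the 10 of the matrix arm -0.52. The 5 core subunits had a median of -0.50 and the 12 accessory subunits -0.57, so core and accessory subunits stood close together.

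The members of complex I that differed least were Ndufa2 and Ndufs4, both accessory subunits of the NADH-binding end. Ndufa2 read 1.67, 1.89 and 1.96 in normal liver and 1.56, 1.34 and 2.23 in fibrotic liver, where fibrosis 3 was the highest of all 6. Its difference was -0.13, with a 95% interval from -0.80 to 0.53 (limma). Ndufs4 was at -0.20, with an interval from -0.75 to 0.35. Ndufa1, a small subunit of the membrane arm, split the fibrotic livers, with 1.54 and 1.48 in fibrosis 1 and 3 but 2.42 in fibrosis 2, against 2.38 to 2.49 in the normal livers. Fibrosis 1 was the lowest ligated liver for 9 of the 17 members of this complex.

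Complex II, the succinate dehydrogenase, also works in the tricarboxylic acid cycle and is wholly nuclear-encoded. None of its 4 subunits passed (0 higher, 0 lower, and 0 also at an unadjusted p under 0.05), at a median of -0.63. Sdha, the flavoprotein that oxidises succinate, read 2.58, 2.79 and 3.24 in normal and 2.34, 2.48 and 1.75 in fibrotic liver, a difference of -0.68 ± 0.30 (limma adjusted p = 0.160). Sdhc, a membrane anchor, had the largest standard error of any member, and ran from 1.41 in normal 1 to 2.70 in normal 3 and from 0.85 in fibrosis 3 to 1.87 in fibrosis 1. Its groups overlapped and its difference was -0.72 ± 0.43 (0.289). Sdhb, the iron-sulphur subunit, was at -0.38 and Sdhd, the other anchor, at -0.58, both with groups that did not overlap. The median of the 4 genes was lowest in fibrosis 3 (-1.03), against -0.54 and -0.39 in fibrosis 1 and 2.

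Complex III, the cytochrome bc1 complex, had 4 measured members at a median of -0.56, of which 0 passed and 1, Uqcrc2, had groups that did not overlap. Among other named genes in the members' range of signal, 41.2% had no overlap with fibrosis below. Uqcrc2, a core protein, read 2.61, 2.64 and 2.91 in normal and 2.09, 1.74 and 2.32 in fibrotic liver, at -0.67 ± 0.25 (limma adjusted p = 0.107). Uqcrfs1, the Rieske iron-sulphur protein, had a larger difference of -0.78 ± 0.34 (0.152), and it was -0.46 without fibrosis 3, which read 1.36. Fibrosis 2 at 2.46 was above normal 1 at 2.42. Uqcrc1, the other core protein, was at -0.36 and Uqcrb at -0.46. Cycs, cytochrome c, which carries electrons from complex III to complex IV, had a brighter probe at -0.37 ± 0.27 (0.397) whose groups overlapped, and a second probe at -0.50 ± 0.26 (0.222) whose groups did not.

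Complex IV, the cytochrome c oxidase, reduces oxygen to water. None of its 7 members passed (0 higher, 0 lower, 4 with an unadjusted p under 0.05), at a median of -0.65, and the groups did not overlap in 5. Among 2089 other named genes in the members' range of signal, 41.2% had no overlap with fibrosis below. An unadjusted limma p under 0.05 was found for 695 of them. Cox4i1, the largest nuclear subunit and the usual form in liver, read 2.21, 2.00 and 2.09 in normal and 1.58, 1.21 and 1.37 in fibrotic liver, at -0.71 ± 0.23 (limma adjusted p = 0.0667). Cox5b read 3.76, 3.81 and 3.90 in normal and 3.13, 3.19 and 3.20 in fibrotic liver, narrow ranges that lay well apart. Its difference was -0.65 ± 0.22 (0.0719). Cox5a had the largest difference, -0.75 ± 0.37 (0.211), but ranged from 0.95 in fibrosis 3 to 2.36 in fibrosis 2, which lay among the normal values of 2.17 to 2.69. Ndufa4, named for complex I but a subunit of complex IV, was at -0.63 ± 0.23 (0.0962) and Cox8a at -0.67 ± 0.24 (0.0874).

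Complex V had the lowest median of the 5 complexes, -0.72, and the groups did not overlap in any of its 4 members, though 0 passed the test after adjustment. Each had an unadjusted p under 0.05. Among 2089 other named genes in the members' range of signal, 41.2% had no overlap with fibrosis below. An unadjusted limma p under 0.05 was found for 695 of them. Atp5f1c, the rotating central stalk of the catalytic head, read 2.74, 3.36 and 3.48 in normal and 2.62, 2.41 and 1.73 in fibrotic liver. The highest fibrotic value lay just below the lowest normal value, and the difference was -0.94 ± 0.33 (limma adjusted p = 0.0840), or 52.1% of the normal signal. Atp5f1b, the catalytic subunit, read 3.69, 3.67 and 3.73 in normal liver and 3.01, 3.37 and 2.52 in fibrotic liver, at -0.73 ± 0.27 (0.105). Atp5f1a, its non-catalytic partner, was at -0.72 ± 0.24 (0.0744) and Atp5pb, of the outer stalk, at -0.63 ± 0.25 (0.124). The order turned with normexp, which gave -0.60 for complex V and -0.64 for complex IV, and with the slide row as a block, which gave -0.64 for complex V, -0.70 for complex IV and -0.76 for complex I. The medians of the complexes, from -0.55 for complex I to -0.72 for complex V, differed by less than the spread of their own members, and the order was not tested because genes are not replicates. As in complex II, fibrosis 3 was lowest, with a median of -1.01 against -0.64 and -0.56.

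Ndufb10, Ndufs4, Uqcrb, Cox7a2 and Cycs were each read by a pair of probes, and all of these probes had a difference below 0. The closest pair was that of Uqcrb, at -0.46 and -0.48, although the second probe was far dimmer. Ndufs4 had a second probe near background whose interval ran from -1.84 to 1.20.

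Member probes were among the brightest on the arrays, and bright probes as a whole were lower in the fibrotic livers under this scaling. With all named genes tested put in 10 bins of equal size by mean signal, 36 of the 37 members lay in the brightest 2 bins. Among 2089 other named genes in the members' range of signal (1.05 to 3.56), 80.4% had a difference below 0 and the median was -0.37. There 13% were called lower and 41.2% had groups that did not overlap with fibrosis below. An unadjusted limma p under 0.05 was found for 695 of these 2089 genes, in either direction. In the brightest bin, which held 29 members, the other genes had a median of -0.46, and in the dimmest bin 0.34. Of the members, 31 lay below the median of other genes in their own bin and 7 below the lower quartile. The difference between members and other genes of like signal was thus smaller than that between members and all genes, and its cause was not tested.

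**Figure D2:**
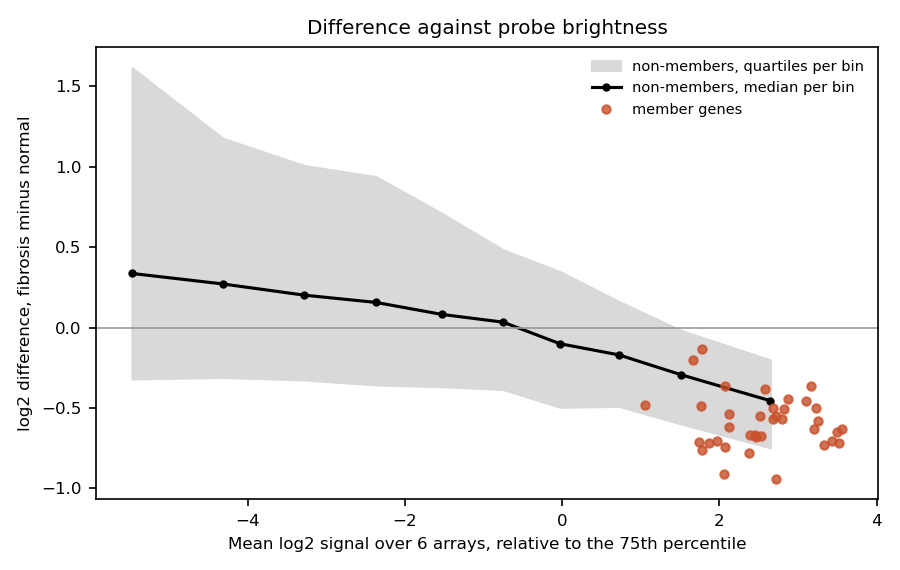
The horizontal axis is the mean log2 signal over 6 arrays relative to the 75th percentile, and the vertical axis is the log2 difference, fibrosis minus normal. Orange points are the 37 members, and the line and band are the median and quartiles of all other named genes in each of 10 bins of signal. The line falls from 0.34 in the dimmest to -0.46 in the brightest bin, and 31 members lie below the median of their own bin.

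How many members passed depended on the scaling between arrays. The array median in place of the 75th percentile gave 27 members called lower and a median of -0.97, while all named genes then had a median of -0.42. Quantile normalization gave 0 members and -0.25, cyclic loess gave 0 and -0.21, and scaling to the E1A spike-in probes 0 and -0.27. The member median minus that of all named genes was -0.55 under the 75th percentile, -0.17 after quantile normalization and -0.22 after cyclic loess. The array median and the spike-ins shift all genes of an array alike, so the gap of -0.55 could not change there. With quantile normalization 34 of the 37 members kept a difference below 0, as they did with cyclic loess, and 35 with spike-in scaling. Leaving out arrays moved the count too, to 0 without any single normal array or fibrosis 1, 5 without fibrosis 2 and 3 without fibrosis 3. The spike-in probes stood 1.09 to 1.21 above the 75th percentile on the normal arrays and 0.45, 1.16 and 0.75 on fibrosis 1, 2 and 3.

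**Figure D3:**
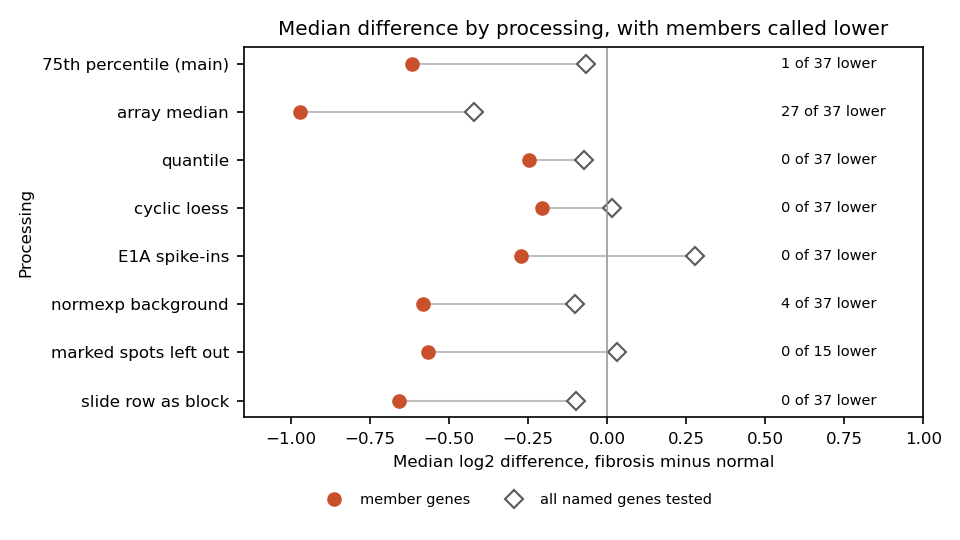
Median log2 difference, fibrosis minus normal, of the member genes (orange circles) and of all named genes tested (open diamonds) under the 75th percentile and 7 other ways of processing, with the number of members called lower at the right. The member median is below 0 in every row drawn, from -0.97 with the array median to -0.21 with cyclic loess, and members called lower in these rows range from 0 to 27 of those tested (37, or 15 with marked spots left out).

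Other subunits of the same complexes stood nearer to 0. Of 35 further subunits of complexes I, III, IV and V, 0 were higher and 0 lower by limma, with 7 at an unadjusted p under 0.05, and 32 had a difference below 0 at a median of -0.44. The lowest was Ndufb11 at -0.71 ± 0.22 (limma adjusted p = 0.0530), followed in the ATP synthase by Atp5mg at -0.65 ± 0.23 (0.0933). Atp5if1, the inhibitor of the ATP synthase rather than a structural part of it, stood highest at 0.52 ± 0.22 (0.144). With quantile normalization 25 of the 35 differences were below 0 and 1 gene was called higher.

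A list of 9 isoforms of chain subunits that are typical of other tissues held 6 genes on the array, of which Cox6a2, Cox6b2 and Cox4i2 were higher in fibrotic liver. These were the 3 that passed the filter on dim probes, Cox6a2 through the fibrosis arrays alone, so their count says nothing of the list. Without the filter 3 of the 6 were higher, 2 had a difference below 0 and the median was 0.58. Cox6a2, the heart and muscle form of a complex IV subunit, was not well above background on any normal array (-6.49, -7.95 and -7.62) and read -1.72, -0.77 and -0.92 in fibrotic liver. It rose at least 54.5-fold (limma adjusted p = 8.68e-05), a bound that holds for the processed signals, since the log2 value with normexp was 3.92. Cox6a1, the form found in liver, was at -0.51 ± 0.24 (0.178). Cox6b2, a testis form, rose by 2.10 ± 0.26 (0.00113), while its partner Cox6b1 was at 0.04 ± 0.36 (0.955). Cox4i2, the lung form of subunit 4, rose by 1.14 ± 0.24 (0.0143), and its call was lost with normexp (0.58, 0.144), quantile normalization (0.80, 0.0661), the array median (0.78, 0.0581), the slide row as a block (0.87, 0.211) and without normal array 2 (1.12, 0.0660) or 3 (1.08, 0.0798).

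Markers of striated muscle were read beside Cox6a2. Of 7 tested, 1 was higher and 0 lower at a median of -0.17, where 14.7% of all named genes were higher and 7.62% lower. The sign of that median depended on the processing. It was 0.52 over the 5 genes above background on all 6 arrays, 0.17 with spike-in scaling and -0.51 with quantile normalization. Those settings had 1, 2 and 1 genes higher. The gene called in the main setting was Tnnt2, cardiac troponin T, at 5.37 ± 0.31 (limma adjusted p = 4.90e-05), and Myl2 was above background on no array. A like split was seen in the carriers that exchange ADP and ATP across the inner membrane. Slc25a4, the heart and muscle form, rose by 1.79 ± 0.25 (0.00202), from -0.88, -0.68 and -0.75 to 1.36, 0.96 and 0.76. Slc25a5, the form of most tissues, was at -0.99 ± 0.41 (0.132).

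**Figure D4:**
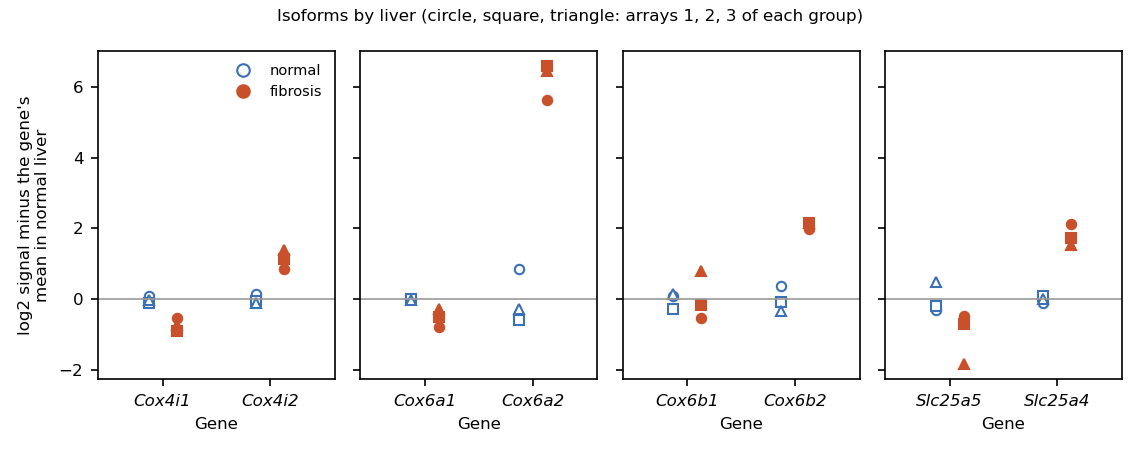
Log2 signal of each array minus the gene's mean in normal liver for 3 pairs of cytochrome oxidase isoforms and the ADP/ATP carriers, with open blue symbols for normal and filled orange symbols for fibrotic livers. Cox6a2, Cox6b2, Cox4i2 and Slc25a4 lie above all normal arrays in each fibrotic liver, and Cox6b2, Cox4i2 and Slc25a4 do so by means of 2.10, 1.14 and 1.79.

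Among genes that build and feed the chain few passed the test. Of 36 assembly factors 0 were higher and 4 lower at a median of -0.43, a count near the background of 7.62% of named genes and 13% of genes in the members' range of signal. They included Ttc19 of complex III assembly, at -1.24 ± 0.36 (limma adjusted p = 0.0454), and Tmem70 of ATP synthase assembly, at -1.05 ± 0.25 (0.0221). The 4 became 17 with the array median, 0 with spike-in scaling, 0 with the slide row as a block, 0 without any single normal array and 2 without fibrosis 1. Of 8 enzymes that deliver electrons to coenzyme Q by other routes, 2 were lower, Prodh (proline dehydrogenase) at -1.28 ± 0.24 (0.00819) and Etfb (of the electron carrier of fatty acid oxidation) at -0.83 ± 0.23 (0.0403). In a list of 11 coenzyme Q genes 2 were lower, Coq10a at -1.21 ± 0.24 (0.00990) and Coq9 at -0.89 ± 0.23 (0.0312). None of these 6 named calls held with spike-in scaling, where adjusted p ran from 0.0832 to 0.315. Without normal array 3 both the coenzyme Q list and the list of other routes had 0 called lower, and without normal array 1 or 2 each had 1. With the slide row as a block both had 0.

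Fatty acid oxidation in mitochondria, which supplies the chain with electrons, had more genes past the test than the chain members in the main setting. Of 15 genes 8 were lower and 0 higher at a median of -0.87, the lowest being Hadhb (-1.30 ± 0.24, limma adjusted p = 0.00712) and Acaa2 (-1.22 ± 0.28, 0.0176) of the last steps of the cycle. The background of genes called lower was 7.62% of all named genes and 13% of other genes in the members' range of signal. The 8 became 15 with the array median, 2 under either quantile normalization or cyclic loess, and 0 with spike-in scaling or the slide row as a block. They became 3, 1 and 1 without normal array 1, 2 and 3, and 4 without fibrosis 1. With no filter on dim probes 4 passed. All 15 differences stayed below 0 in each of these alternatives. With marked spots left out, 5 of the genes were tested, of which 0 passed and 5 had a difference below 0. The difference between this list and the chain was not tested.

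Regulators of mitochondrial biogenesis went both ways, with 1 of 18 higher and 4 lower, where 14.7% of all named genes were higher and 7.62% lower. Ppargc1a, a coactivator that raises the transcription of chain genes, read -5.04, -4.79 and -5.83 in normal and -3.80, -3.85 and -3.51 in fibrotic liver. It rose by 1.50 ± 0.32 (limma adjusted p = 0.0130), and the call was lost with normexp (0.74, 0.0565), the slide row as a block (1.42, 0.156) and without normal array 3 (1.20, 0.0524). The probe of Ppargc1a was dim, with a mean in the bin of signal from -4.87 to -3.78. Genes of that bin had a median difference of 0.27 and an upper quartile of 1.18. The 4 lower genes were Sirt3, a mitochondrial deacetylase, at -1.24 ± 0.30 (0.0220), and 3 that copy or transcribe mitochondrial DNA. Tfb2m, a transcription factor, was at -1.24 ± 0.26 (0.0134), Polg, the DNA polymerase, at -1.23 ± 0.25 (0.0118) and Tfam, which packages the DNA, at -0.89 ± 0.25 (0.0390). With spike-in scaling none of the 4 passed (adjusted p from 0.122 to 0.400), and their differences stayed below 0. Without normal array 1, 2 or 3 the lower calls numbered 2, 1 and 1, and without fibrosis 3 they numbered 8. With the slide row as a block 1 gene of the list was lower and 0 higher. Nrf1 and Esrra, which encode factors of chain promoters, were at 0.21 and -0.31 and did not pass.

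**Figure D5:**
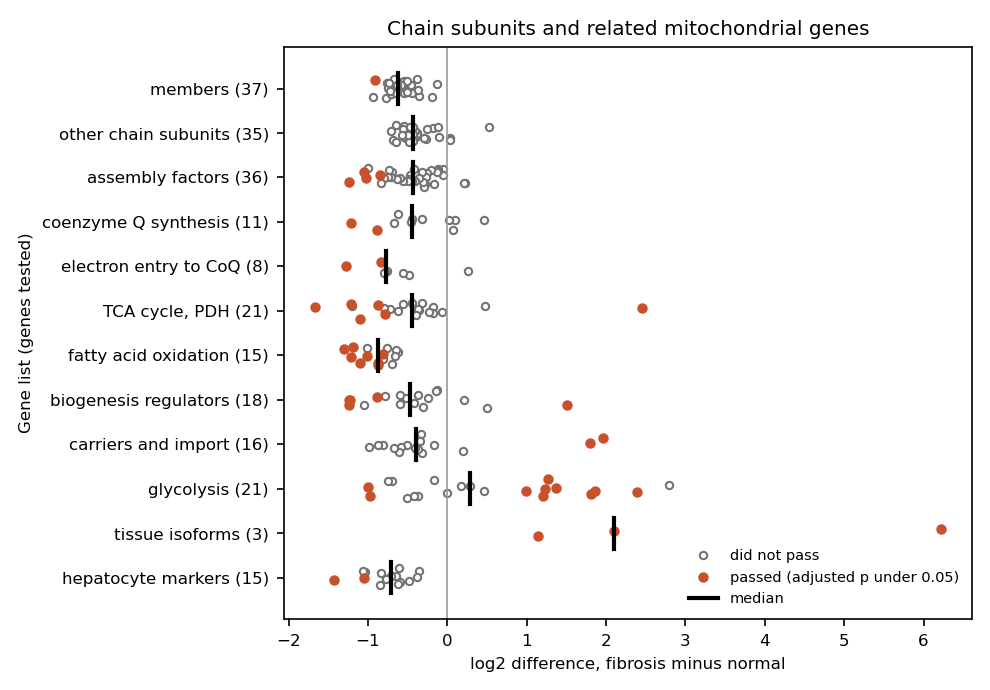
Each point is the log2 difference of a gene, fibrosis minus normal, in the members and in related lists with the number of genes tested in brackets, filled orange where it passed the test and with a bar at the median. The members cluster between -0.94 and -0.13 with 1 filled point, fatty acid oxidation has 8 filled points below 0, and 3 tissue isoforms lie above 1.

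Markers of hepatocytes, the cells with most of the liver's mitochondria, had a median difference close to that of the members. All 15 had a difference below 0 (13 with quantile normalization at a median of -0.32, and 11 with cyclic loess at -0.29). By the test 2 were called lower, G6pc1 (-1.43 ± 0.27, limma adjusted p = 0.00796) and Apoc3 (-1.05 ± 0.22, 0.0140). The background called lower was 7.62% of all named genes and 13% of genes in the members' range of signal. The median of the hepatocyte markers was -0.71, against -0.62 for the members and -0.46 for genes other than members in the brightest bin of signal. With marked spots left out, 1 of the 15 was tested, at -0.85, so this median rests largely on marked spots. The summed level of the hepatocyte markers, relative to the 75th percentile, ran from 236 to 257 in normal and from 138 to 175 in fibrotic livers. Cholangiocyte markers ran from 1.06 to 1.40 and from 13.4 to 18.0, and stellate cell and myofibroblast markers from 8.80 to 13.1 and from 22.3 to 42.2. By array the hepatocyte median was -0.76, -0.47 and -0.72 in fibrosis 1, 2 and 3, and the member median ran in the same order (-0.66, -0.40 and -0.65). The call of Apoc3 was lost without each normal array in turn (adjusted p from 0.0554 to 0.0750). The part of cell composition in the lower member values was not tested.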

How the data were processed

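The deposited files hold spot intensities as the authors deposited them, 1 file per 1-colour array. Agilent Feature Extraction 11.5.1.1 had subtracted the background and removed trends across the array, per the file headers, which record no scaling between arrays. The 6 arrays shared 1 slide and 1 scan date, with the 3 normal arrays and fibrosis array 1 in its first row and fibrosis arrays 2 and 3 in its second, per the file headers.

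From these, log2 processed signals minus each array's 75th percentile were averaged over the spots of a probe, 58717 spots an array without controls. Spots carrying the software's uniformity or population outlier mark were kept, since 56.6% to 82.9% of the spots of member probes were marked. Of all spots of an array 18.8% to 35.2% were marked, so member probes were marked more often. Saturated spots numbered 0. A probe was tested if at least 0.5 of its spots were well above background on every array of a group. Accessions without version were matched to the RefSeq gene table of GRCr8, which named 18355 probes and left 12012 unnamed. Coordinates came only from the RefSeq promoter table of the same build.

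Groups were compared with limma 3.58.1 (lmFit, eBayes) in R 4.3.3, Benjamini-Hochberg adjusted over all tested probes. The fit was tested on simulated data. Replicates were numbered in the order of the records. The members, gene lists and tests were chosen with earlier results of these data known. Text names, in each complex, members with the largest changes, up to 2 called genes of a list in each direction, and some fixed genes. Ndufa1, Ndufa2, Ndufs3, Ndufs4, Polg, Atp5if1, the ADP/ATP carrier pair and further members were named after their values were seen. Alternatives covered marked spots, scaling, background, filters, probe choice, variance model, slide row and each array left out.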

Additional observations from a re-analysis of the deposited data

How the results depend on the processing

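No member was called higher under any of the alternatives run. Members called lower numbered 1 in the main setting, 27 with the array median, 29 with array weights, 15 with trend and robust eBayes, 4 with normexp on median signals and 3 when p was adjusted over 10864 genes. They numbered 0 with quantile normalization, cyclic loess, spike-in scaling, no filter on dim probes, the slide row as a block, and marked spots left out (15 members tested), and 0 to 5 when an array was left out: 0 without each normal array or fibrosis array 1, 5 without fibrosis array 2 and 3 without fibrosis array 3. The median over members was -0.25 after quantile normalization, -0.21 after cyclic loess, -0.27 after spike-in scaling and -0.97 relative to the array median, against -0.62, and stayed within the spread between livers (SD 0.144) under the others.

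For complexes I, II, III, IV and V in this order, the median was -0.23, -0.27, -0.22, -0.23 and -0.30 after quantile normalization. Cyclic loess gave -0.21, -0.23, -0.18, -0.19 and -0.27, spike-in scaling -0.21, -0.28, -0.22, -0.31 and -0.38, and the array median -0.91, -0.98, -0.92, -1.01 and -1.08. The slide row as a block, which rests on fibrosis array 1 alone, gave -0.76 for complex I and -0.64 for complex V.

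Of the values of single members under these alternatives 10 turned above 0. Ndufa2 was 0.16 after quantile normalization, 0.15 after cyclic loess, 0.21 with spike-in scaling, 0.0096 with normexp. Leaving out an array gave Ndufa2 values from -0.39 without fibrosis array 3 to 0.054 without fibrosis array 2. Ndufs4 was 0.062 after quantile normalization, 0.073 after cyclic loess and 0.14 with spike-in scaling. Cycs was 0.024 after quantile normalization and 0.065 after cyclic loess. The cause of these changes was not tested.

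No paired analysis was possible because the labels give no replicate numbers that tie normal to ligated rats. Leaving out an array also leaves fewer degrees of freedom. With 3 livers a group and a median member difference of -0.62, the standard error of a member (0.216 to 0.427) limits which calls can be made.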

Other observations

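Glycolysis, which makes ATP outside the mitochondrion, had 8 of 21 genes higher and 2 lower at a median of 0.28. The background was 14.7% of all named genes higher and 7.62% lower. Ldhb, a lactate dehydrogenase subunit of heart, rose by 2.38 ± 0.33 (limma adjusted p = 0.00184) and Pfkp, a phosphofructokinase, by 1.86 ± 0.25 (0.00170), while Ldha and Pklr, the forms typical of liver, stood at -1.0 ± 0.28 (0.0398) and -0.97 ± 0.28 (0.0466). Both lower calls were lost with quantile normalization, cyclic loess and spike-in scaling, under which 6, 8 and 7 genes of the list were higher and 0 lower. With the array median 4 were higher and 5 lower, and the median was -0.07. Without normal array 1, 2 or 3 the higher calls numbered 4, 2 and 3 and the lower calls 0, and without fibrosis 1 they numbered 4 and 0. With the slide row as a block 2 were higher and 0 lower.

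The kinases that switch off pyruvate dehydrogenase, the entry from glycolysis to the tricarboxylic acid cycle, also went in opposite directions. Of 21 genes of the cycle and its entry 1 was higher and 5 lower at a median of -0.44. The background, for this list and the others named here, was 14.7% of all named genes higher and 7.62% lower. Pdk3 rose by 2.45 ± 0.39 (limma adjusted p = 0.00381), and Pdk4 was at -1.67 ± 0.36 (0.0141) and Pdk1 at -1.22 ± 0.25 (0.0112). Ucp2, an inner membrane carrier, rose by 1.96 ± 0.30 (0.00292). Of 10 antioxidant enzymes 0 were higher and 2 lower, Cat (catalase) at -1.93 ± 0.55 (0.0434) and Gpx1 at -1.12 ± 0.26 (0.0205). With spike-in scaling or the slide row as a block none of the 4 lower genes named here passed, and each lost its call without at least 1 array. The call of Pdk1 was lost without normal array 1 (adjusted p = 0.0514) and that of Pdk4 without normal array 2 (0.0615) or 3 (0.0685). Cat and Gpx1 lost theirs without normal array 2 (0.147 and 0.0835) or 3 (0.154 and 0.0796), Cat also without fibrosis array 2 (0.0822) or 3 (0.0735), and Gpx1 also without normal array 1 (0.0738) or fibrosis array 1 (0.0513).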
